A study of Homo sapiens with 4 samples.

Results

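The FOXA1 and MIPOL1 domain is a stretch of chromosome 14, hg19 positions 37600000 to 38250000, that holds the gene FOXA1, the gene MIPOL1 and the DNA between and around them. Its members are the listed ATAC-seq peaks whose summit falls in that stretch. There were 71 of them in the list of LNCaP cells given GSK2879552, out of 163735 peaks, and 90 in the list of cells given vehicle, out of 194551 peaks. ATAC-seq maps open chromatin with a transposase that inserts sequencing adapters into accessible DNA. The cell line LNCaP comes from a human prostate cancer and responds to androgen. GSK2879552 is an inhibitor of LSD1 (KDM1A), a histone demethylase. The protocol text of all 4 samples, vehicle included, reads 50 µM for 4 hours in RPMI1640 with 5% CSS, and 10% FBS for routine culture, so a sample's group was taken from its agent label. Each condition had 2 sequencing lanes, labelled as technical replicates, and 1 peak list made from both. There was therefore 1 library per condition, no replicate check and no test between conditions. All intervals below are exact 95% intervals and cover counting error only. Whether these cells carry LNCaP's marker genes was not checked here, since the lists hold no gene names.

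FOXA1 is a forkhead transcription factor of the pioneer class: it binds its sites in closed chromatin and opens them for other factors, and it is known for this role in luminal prostate cells. The gene is often mutated, amplified or rearranged in prostate cancer. LSD1 has been reported to remove methyl groups from the FOXA1 protein itself in prostate cancer cells, besides its action on histones. MIPOL1, named after mirror-image polydactyly, codes for a coiled-coil protein. Its terminal part and the DNA on the downstream side of FOXA1 hold enhancers of FOXA1. In LNCaP cells the ETV1 locus has been inserted into the last intron of MIPOL1, so hg19 positions give the reference order of this DNA and not its order in these cells.

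On hg19 the minus-strand gene FOXA1 was taken to span 38058757 to 38064325, with its start at 38064325. The plus-strand gene MIPOL1 was taken to span 37667118 to 38020464, with its start at 37667118. The FOXA1 downstream side therefore faces the end of MIPOL1. In the RefSeq order for GRCh38.p14, SLC25A21 is the protein-coding neighbour before MIPOL1, and TTC6 follows FOXA1. Exons, introns and UTRs were not assigned to peaks, since no annotation of the hg19 build was used here.

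Peaks were listed at both gene starts under both conditions, so the RefSeq sequences just before these starts are shown. They are the 250 bases before each start on GRCh38.p14, 5′ to 3′ on the strand of the gene: chr14:37595250-37595499, minus strand, for FOXA1 and chr14:37197687-37197936, plus strand, for MIPOL1. Capitals mark 2 motifs searched on both strands, the forkhead motif TGTTTNC and the GC box GGGCGG.
FOXA1: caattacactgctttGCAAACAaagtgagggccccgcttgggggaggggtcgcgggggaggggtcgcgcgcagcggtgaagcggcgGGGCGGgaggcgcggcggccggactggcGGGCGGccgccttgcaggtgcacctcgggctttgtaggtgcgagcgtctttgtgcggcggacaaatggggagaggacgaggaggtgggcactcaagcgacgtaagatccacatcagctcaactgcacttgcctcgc
MIPOL1: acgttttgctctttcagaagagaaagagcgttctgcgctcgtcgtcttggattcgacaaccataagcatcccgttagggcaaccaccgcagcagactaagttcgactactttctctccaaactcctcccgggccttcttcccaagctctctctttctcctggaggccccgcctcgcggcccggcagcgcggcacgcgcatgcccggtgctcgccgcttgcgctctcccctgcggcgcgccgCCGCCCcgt

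Both sequences are rich in CpG. The FOXA1 sequence holds 26 CpG and is 67.2% G or C, and the MIPOL1 sequence holds 28 CpG and is 63.2% G or C. Over 27303 RefSeq promoters of the same length the medians were 11 CpG and 58.0% G or C. The FOXA1 sequence has 1 forkhead match, on the reverse strand, whose first base is at position -235 from the gene start, and the MIPOL1 sequence has 0. A forkhead match was present in 15.6% of all promoters, and a GC box in 42.3%. There were 2 GC box matches for FOXA1 and 1 for MIPOL1, and no forkhead match overlapped a GC box. The TATA box TATAAA, the ETS motif CCGGAAG and the E-box CACGTG had 0 matches in both sequences, against 11.1%, 8.82% and 6.49% of all promoters with a match. The RefSeq genes are longer than the hg19 spans used for the peaks, by 129 bases for FOXA1 and 1078 for MIPOL1, so the starts in the 2 annotations need not be the same base.

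Tags, the reads counted at a peak's summit, were recovered from the deposited fold and −log10 p of each row. To compare the lists, the ratio of GSK2879552 to vehicle tags was divided by 1.18, the ratio of the lists' genome-wide backgrounds (2.72 tags with GSK2879552 and 2.31 tags with vehicle). A pair is a GSK2879552 peak and a vehicle peak that overlap each other and no other peak. The genome-wide values set beside the domain are those of chromosomes 1 to 22, X and Y.

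The whole domain was rich in listed peaks. Over 650 kb it held 71 GSK2879552 peaks (55.5 to 89.6) and 90 vehicle peaks (72.4 to 111). Among 4440 stretches of the same length laid end to end along the genome, the median was 36 GSK2879552 peaks and 43 vehicle peaks, and the 95th percentiles were 66 and 75. The domain therefore stood above the 95th percentile of both lists. When the vehicle list was shortened to as many peaks as the GSK2879552 list, by −log10 p, the domain held 71 GSK2879552 and 66 vehicle peaks, so the order of the counts rests on the lengths of the lists. The peaks covered 16.1 kb with GSK2879552 and 22.2 kb with vehicle.

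Fewer tags were counted with GSK2879552 than with vehicle along the domain, to about the extent seen over all paired peaks. At 49 pairs, 1190 GSK2879552 tags stood against 1586 vehicle tags, a scaled ratio of 0.638 (0.591 to 0.688). Over all 110134 pairs the ratio was 0.683. The interval of the domain includes that value. With no scaling for depth the ratio was 0.750 in the domain and 0.803 over all pairs. The median log2 ratio was -0.69 in the domain (interquartile range -0.90 to -0.44) and -0.56 over all pairs.

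Of the 49 pairs, 43 (87.8%, interval 75.2 to 95.4) were lower with GSK2879552 after scaling, where 94.2% of all pairs were. At least 1.5-fold lower were 27 pairs (55.1%, 40.2 to 69.3), against 45.5% of all pairs. At least 1.5-fold higher were 0 pairs (0 to 7.25%), against 0.172% of all pairs. Each of these intervals includes the share over all pairs. For 17 of the 49 pairs the interval of the ratio lay below 1, where it did for 26.8% of all pairs. For 0 of the 49 did it leave out the genome-wide 0.683, where it did for 0.94% of all pairs, so no single pair of the domain departed from the genome-wide ratio by more than counting error. The 6 pairs that were not lower were weak, with 24 to 41 tags over both lists. Among the 31 pairs of at least 40 tags, 30 were lower (96.8%), where 98% of all such pairs were.

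**Figure D1:**
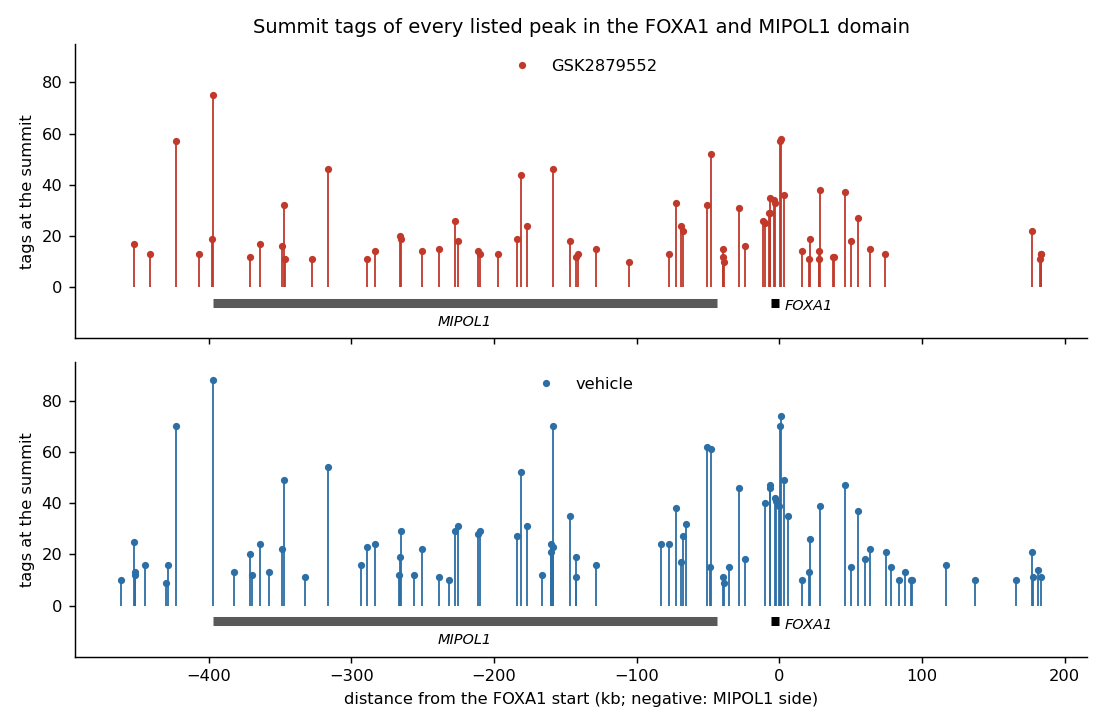
Tags at the summit of every listed peak of the domain (y axis) against the distance of the summit from the FOXA1 start in kb (x axis), GSK2879552 above and vehicle below, with the gene spans as bars. The tallest summit of both lists stands at the MIPOL1 start, with 75 tags for GSK2879552 and 88 for vehicle, and a dense group of summits surrounds FOXA1.

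FOXA1 stood in a broad hump of raised background. The 2 peaks before its start had the summits next in height to that of the MIPOL1 start in both lists. In each list the lower of them tied with a peak before MIPOL1, and with vehicle also with a peak in the MIPOL1 span. The caller's local background is the mean number of tags per position in the 10 kb around a summit, and it never falls below the genome-wide level. At the peak nearest the FOXA1 start it was 15.3 tags with GSK2879552 and 20.1 tags with vehicle. These equal 1529 and 2010 tags in 10 kb. At the vehicle summit 16.1 kb beyond the FOXA1 start the background was back at the genome-wide level.

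A local background of at least 10 tags was found at 8 of the 71 GSK2879552 peaks and 8 of the 90 vehicle peaks (11.3% and 8.89%). Over the genome it was found at 3.91% of GSK2879552 peaks and 4.21% of vehicle peaks. All of the domain's such peaks lay within 7 kb of the FOXA1 start, so their windows share tags and are not separate observations.

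**Figure D2:**
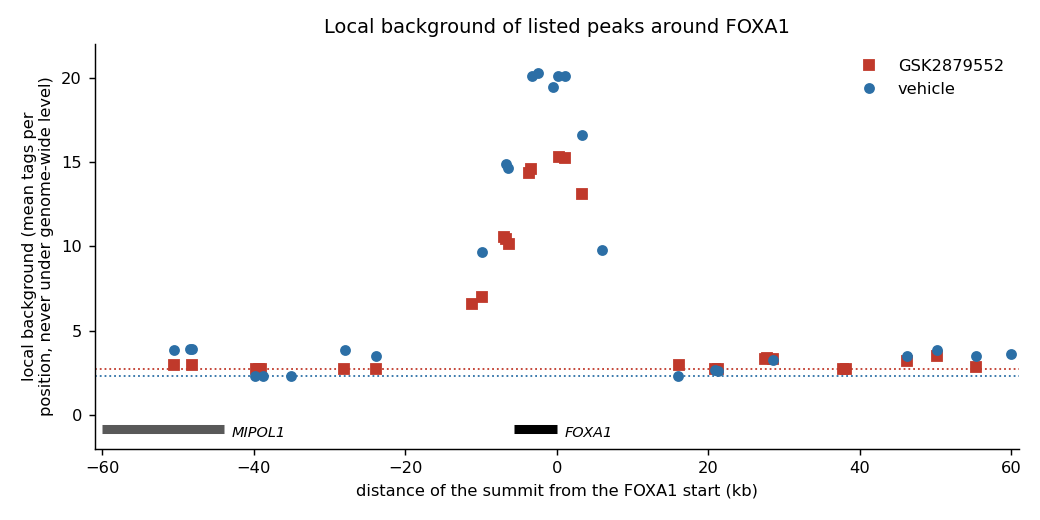
Local background of each listed peak (y axis, mean tags per position over 10 kb) against the distance of its summit from the FOXA1 start in kb (x axis), with GSK2879552 as squares, vehicle as circles and the genome-wide levels of 2.72 and 2.31 tags as dotted lines. Both lists form a hump over FOXA1 that reaches 15.3 tags for GSK2879552 and 20.3 tags for vehicle.

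The first peak at the FOXA1 start covered 38064182 to 38064883 with GSK2879552 and 38064078 to 38064955 with vehicle. Its summit carried 57 tags with GSK2879552 (43.2 to 73.9) and 70 tags with vehicle (54.6 to 88.4), and lay 276 and 218 bases before the hg19 gene start. The scaled ratio was 0.693 (0.480 to 0.997). The interval just excludes 1 and includes the genome-wide 0.683. A neighbouring peak about 1 kb before the start, at 38065195 to 38065519 with GSK2879552 and 38065138 to 38065526 with vehicle, carried 58 and 74 tags, a ratio of 0.667 (0.464 to 0.953). Farther out, the peak whose vehicle summit lay 3.29 kb before the start carried 36 tags with GSK2879552 and 49 with vehicle, a ratio of 0.625 (0.395 to 0.981). All of these were lower with GSK2879552, by like factors.

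Within the FOXA1 span itself 2 peaks were listed with GSK2879552 and 3 with vehicle. The pair at 38060946 to 38061065 with GSK2879552 and 38060968 to 38061125 with vehicle had 33 and 42 tags, a ratio of 0.668 (0.410 to 1.08). That interval includes 1. GSK2879552 alone had a listed peak at 38060602 to 38060719, with 34 tags. Vehicle alone had peaks at 38061844 to 38061943, with 41 tags, and 38063786 to 38063885, with 39 tags. On such a background a summit has to be high to be listed: at the vehicle background of 20.1 tags the smallest −log10 p of that list takes 35 tags, and at the GSK2879552 background of 15.3 tags it takes 29 tags. At the genome-wide level 8 tags were enough with vehicle and 9 with GSK2879552. The part of this minimum in which of the weak FOXA1 peaks were listed was not tested.

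The FOXA1 start ranked high by tags and lower by −log10 p, which is taken against the local background. By tags, these peaks ranked 3 (tied) and 2 among the 71 GSK2879552 peaks, and by −log10 p they ranked 16 and 15. Among the 90 vehicle peaks they ranked 3 (tied) and 2 by tags, and 23 and 21 by −log10 p. The authors' fold at the first of them was 3.56 with GSK2879552 and 3.36 with vehicle, each against its own local background, while the MIPOL1 start had folds of 12.3 and 12.4.

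Between the end of MIPOL1 and FOXA1, on the downstream side of FOXA1, 10 peaks were listed with GSK2879552 and 8 with vehicle, over 38.3 kb. At the 5 pairs, 116 GSK2879552 tags stood against 162 vehicle tags, a ratio of 0.609 (0.476 to 0.778). The widest was at 38036022 to 38036602 with GSK2879552 and 38035921 to 38036582 with vehicle, and it had 31 and 46 tags, a ratio of 0.573 (0.351 to 0.924). Nearest FOXA1, the peak at 38057909 to 38058030 with GSK2879552 and 38057868 to 38058035 with vehicle had 29 and 47 tags, a ratio of 0.525 (0.319 to 0.851). Beside it, a vehicle peak of 532 bp with 46 tags overlapped 2 GSK2879552 peaks, with 29 and 35 tags. The peaks near FOXA1 in this stretch were thus lower with GSK2879552, and the intervals of both ratios include 0.683. The strongest GSK2879552 peak of the domain by −log10 p without a vehicle partner lay here as well, at 38052995 to 38053208. It had 26 tags (17.0 to 38.1), and the nearest vehicle peak was 1120 bp away.

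The MIPOL1 start held the tallest summit of the domain in both lists. With GSK2879552 the start was covered by a peak of 531 bp with 75 tags (59.0 to 94.0) and, beside it, a peak of 203 bp with 19 tags. With vehicle it was 1 peak of 919 bp with 88 tags (70.6 to 108). The highest summits lay at the same position, 37667120, under both conditions. Their scaled ratio was 0.725 (0.526 to 0.998). The summit thus lay at 1 position, and the listed region around it was in 2 pieces with GSK2879552. The widest peak of the domain lay before MIPOL1, at 37641065 to 37641995 with GSK2879552 and 37641036 to 37642013 with vehicle. It had 57 and 70 tags, a ratio of 0.693 (0.480 to 0.997), which is the same pair of tag numbers as at the FOXA1 start.

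Along the MIPOL1 span of 353 kb, 34 peaks were listed with GSK2879552 and 45 with vehicle. The 27 pairs there summed to 589 GSK2879552 and 832 vehicle tags, a ratio of 0.602 (0.541 to 0.670). This interval lies below the genome-wide 0.683, which those of the 4 other zones include. When the ratio is taken relative to the genome-wide one, it is 0.882 (0.792 to 0.981). The gap was smaller once overlapping peaks, the MIPOL1 start included, were joined to regions: the ratio was then 0.621 (0.563 to 0.684), and its interval includes 0.683. Beyond the FOXA1 start, 378 GSK2879552 and 455 vehicle tags at 14 pairs gave 0.707 (0.615 to 0.812). The intervals of the MIPOL1 span and of the stretch beyond FOXA1 overlap, and with 1 library per condition their difference was not tested.

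**Figure D3:**
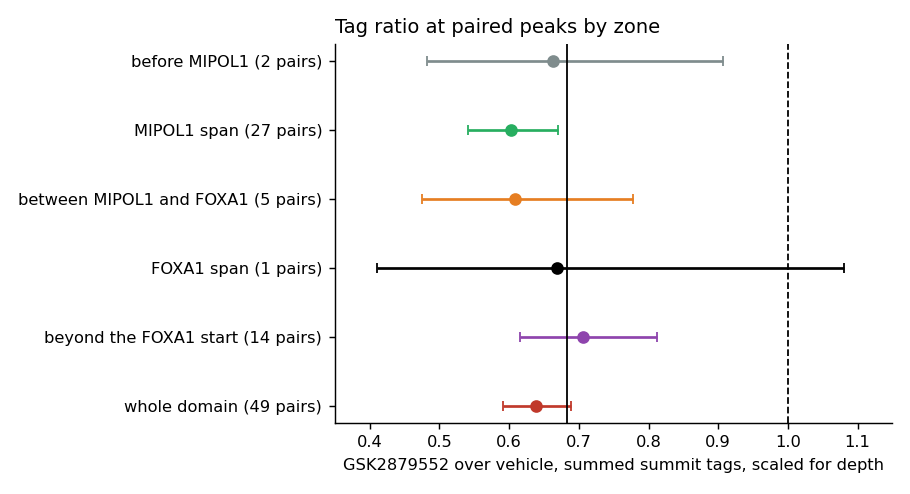
Ratio of GSK2879552 to vehicle summit tags summed over the pairs of each zone and scaled for depth (x axis), with exact 95% intervals for counting error. The solid line marks 0.683, the ratio over all pairs of the genome, and the dashed line equal tags. The interval of the MIPOL1 span, 0.541 to 0.670, lies left of the solid line.

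The 5 lowest ratios among pairs of at least 40 tags all lay in the MIPOL1 span, which held 27 of the domain's 49 pairs of any strength. The strongest of them was near the end of the gene, at 38013709 to 38013895 with GSK2879552 and 38013664 to 38013903 with vehicle, with 32 tags (21.9 to 45.2) and 62 tags (47.5 to 79.5). Its ratio was 0.439 (0.277 to 0.683), with the summits 2 bp apart, and the upper bound equals the genome-wide ratio to the digits printed. Its neighbour nearer to the gene's end had a higher ratio. There the GSK2879552 list had 1 peak with 52 tags, at 38015965 to 38016376, and the vehicle list had 2 peaks, the taller with 61 tags at 38016110 to 38016376, a ratio of 0.725 (0.491 to 1.07). The intervals of these neighbours overlap.

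The lowest ratio of all was at 37854632 to 37854731 with GSK2879552 and 37854581 to 37854741 with vehicle, with 13 and 29 tags, a ratio of 0.381 (0.182 to 0.757). Among pairs of at least 40 tags it was followed by the neighbouring peak at 37853130 to 37853247 with GSK2879552 and 37853102 to 37853268 with vehicle, with 14 and 28 tags, a ratio of 0.425 (0.207 to 0.835). At 37917415 to 37917684 with GSK2879552 and 37917398 to 37917710 with vehicle there were 18 and 35 tags, a ratio of 0.437 (0.233 to 0.794). The intervals of these 3 pairs are wide and include 0.683. They were picked as the lowest, so their ratios are a description only.

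Strong MIPOL1 peaks away from the start were lower as well. At 37905703 to 37906075 with GSK2879552 and 37905687 to 37906101 with vehicle the summit had 46 and 70 tags, a ratio of 0.559 (0.377 to 0.822). The peak at 37747860 to 37748447 with GSK2879552 and 37747871 to 37748576 with vehicle had 46 and 54 tags, a ratio of 0.725 (0.478 to 1.09). Between these, the peak at 37882881 to 37883180 with GSK2879552 had 44 tags, and 52 with vehicle, a ratio of 0.720 (0.471 to 1.10). The first of the 3 has an interval below 1, and those of the others include it.

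The highest ratio among pairs of at least 40 tags was also in the MIPOL1 span. At 37995579 to 37995722 with GSK2879552 and 37995583 to 37995718 with vehicle, 24 and 17 tags gave 1.20 (0.619 to 2.38). Next were 2 pairs beyond the FOXA1 start. The one at 38241400 to 38241590 with GSK2879552 had 22 tags against 21 with vehicle, a ratio of 0.891 (0.467 to 1.70). The other, 28.6 kb from the start, had 38 tags against 39, a ratio of 0.829 (0.516 to 1.33). The intervals of these 3 pairs include both 1 and 0.683. The rest of the 5 highest lay in the MIPOL1 span too, with ratios of 0.763 (0.431 to 1.34) and 0.739 (0.449 to 1.21).

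**Figure D4:**
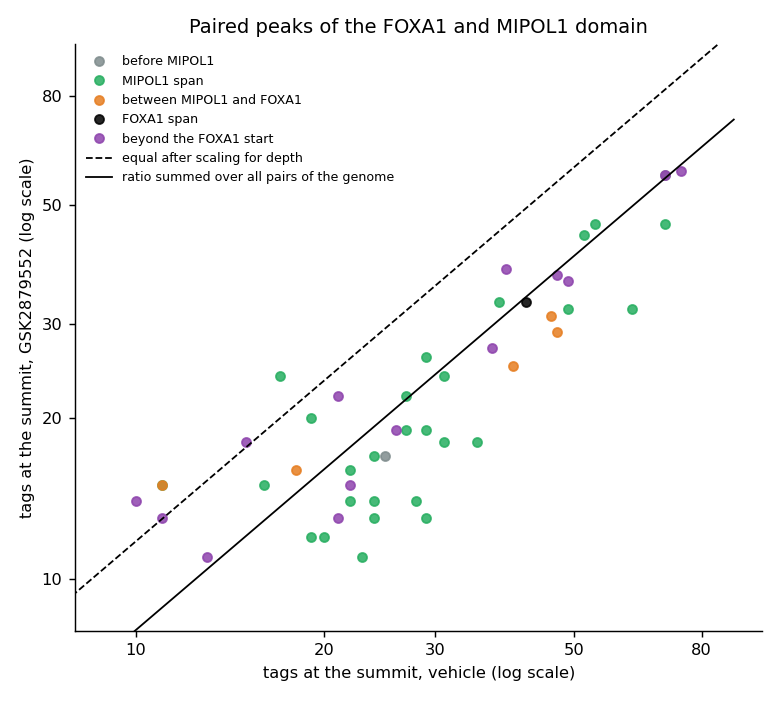
Summit tags with GSK2879552 (y axis) against vehicle (x axis), both on log scales, for the 49 pairs of the domain coloured by zone. The dashed line marks equal tags after scaling for depth and the solid line the ratio over all pairs of the genome, 0.683. Of the 49 pairs, 43 lie below the dashed line.

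Tags over 10 kb gave larger numbers than single summits. For 21 pairs the window around the summit was above the genome-wide level in both lists. At 14 more pairs it was above that level in the vehicle list and within 0.001 tags of it in the GSK2879552 list, and at 1 pair the other way round. These pairs give no ratio and are left out. Around the first FOXA1 start peak, 1529 GSK2879552 and 2010 vehicle tags gave a ratio of 0.647 (0.605 to 0.692). Around the peak within the FOXA1 span, 1458 and 2009 tags gave 0.617 (0.577 to 0.661). On the downstream side, where positions relative to the start are negative, 1013 and 1467 tags around the vehicle summit at -6.36 kb gave 0.587 (0.542 to 0.637). These 3 windows overlap each other. The window at -9.86 kb, which does not overlap that of the start peak, had 698 and 968 tags, a ratio of 0.613 (0.556 to 0.677).

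These ratios were low beside those of windows over the genome with as many tags. Of 1166 pairs over the genome with a vehicle background of 15 to 25 tags, the median ratio was 0.763 and the 5th percentile 0.660. At or below the value of the FOXA1 start were 2.66% of them, and at or below that of the FOXA1 span 0.429%. These shares include the domain's own pairs, and pairs whose windows overlap are counted separately. Farther along MIPOL1, the window at -158 kb had 355 GSK2879552 and 518 vehicle tags, a ratio of 0.583 (0.508 to 0.669). For pairs with a vehicle background of 5 to 10 tags the median was 0.821, and 0.319% were at or below that value. In all, 16 of the 21 windows lay below the 5th percentile of their class, and 8 of the 11 that do not overlap each other. Only pairs with both windows above the genome-wide level entered the classes. In the class with a vehicle background below 5 tags, that rule keeps out the lowest ratios and so raises the 5th percentile, 0.738. How far it is raised was not tested, so the count of low windows in that class cannot be taken at face value. Both counts above include windows of that class. Outside it, the low windows that do not overlap each other lay at -158, -9.86 and 1.045 kb, with ratios of 0.583, 0.613 and 0.645. The comparison with windows over the genome is a description of these libraries, and no test stands behind it.

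Low values ran along the MIPOL1 side up to FOXA1 and were also found beyond its start. From -184 kb to the FOXA1 span, 12 windows, some of which overlap each other, ranged from 0.583 to 0.675. Nearer the MIPOL1 start, at -347 kb, 272 GSK2879552 and 335 vehicle tags gave 0.691 (0.586 to 0.812). The GSK2879552 count of 272 is the smallest that lies above the genome-wide level. A lower ratio could therefore not be seen there, nor at -184 kb, where 272 and 343 tags gave 0.675. More than 10 kb beyond the start, 4 windows ranged from 0.695 to 0.864. The highest, at 28.6 kb, had 331 GSK2879552 and 326 vehicle tags, a ratio of 0.864 (0.739 to 1.01). The lowest, at 55.4 kb, had 285 and 349 tags, a ratio of 0.695 (0.592 to 0.815). It was also below the 5th percentile of its class, 0.738, which the choice of pairs raises. Before MIPOL1, 500 and 560 tags at -423 kb gave 0.759 (0.672 to 0.858). The interval at 28.6 kb lies above that of the FOXA1 span window and overlaps those of some windows on the MIPOL1 side, and the interval at 55.4 kb overlaps that of the FOXA1 span window. With 1 library per condition, a regional difference between the libraries and an effect of the treatment cannot be told apart.

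**Figure D5:**
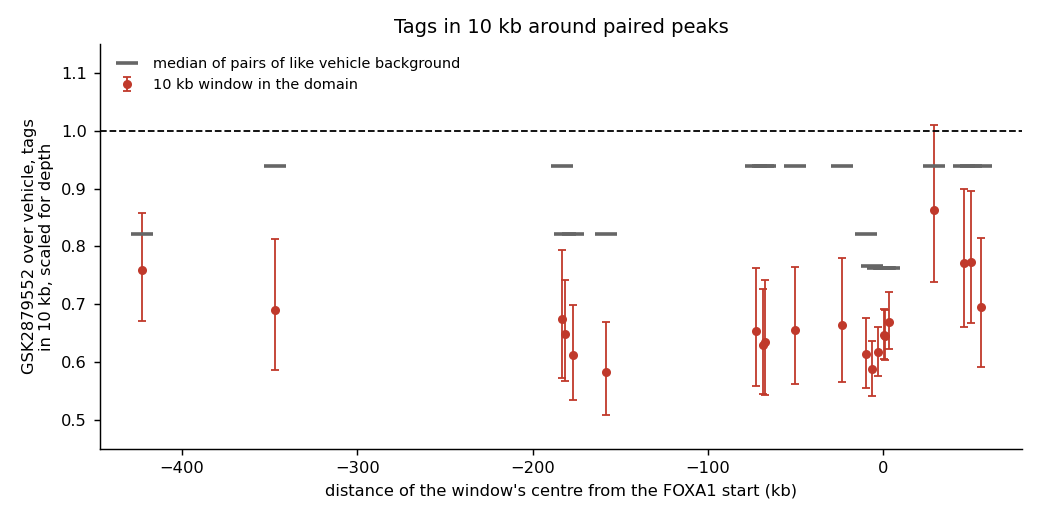
Ratio of GSK2879552 to vehicle tags in 10 kb around 21 paired peaks, scaled for depth (y axis), against the distance of the window's centre from the FOXA1 start in kb (x axis), with exact 95% intervals. Grey dashes give the median over pairs of the genome with a like vehicle background and both windows above the genome-wide level. The points from -184 kb to the FOXA1 span lie at 0.583 to 0.675, under the grey dashes, and some of their windows overlap.

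Peaks listed under 1 condition were mostly weak. In the GSK2879552 list 17 of 71 peaks had no vehicle partner (23.9%, interval 14.6 to 35.5), where the share over the genome was 23.5%. In the vehicle list 37 of 90 had no GSK2879552 partner (41.1%, 30.8 to 52.0), where it was 38.5%. Each interval includes the share over the genome. The unpartnered peaks of the domain had a median of 12 tags with GSK2879552 and 13 with vehicle. Over the genome such peaks were weak as well, with medians of 13 and 15 tags.

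By −log10 p, the strongest vehicle peak without a partner lay in the MIPOL1 span, at 37998876 to 37999075. It had 32 tags (21.9 to 45.2) over a background of 3.01, and the nearest GSK2879552 peak was 2018 bp away. Next was 37981510 to 37981655, also in the MIPOL1 span, with 24 tags (15.4 to 35.7) and the nearest GSK2879552 peak 5100 bp away. Close to FOXA1, 6.05 kb before its start, the vehicle peak at 38070282 to 38070457 had 35 tags over a background of 9.81, with the nearest GSK2879552 peak at 2561 bp. So these 3 summits, all above the median of 21.5 tags of the domain's vehicle peaks, had no listed counterpart. The tags of the GSK2879552 library at these places are not given by its list.

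Next among the GSK2879552 peaks without a partner were 5 that tied by −log10 p, with 13 tags each over the genome-wide background. Of these, 2 lay before MIPOL1, at 37622856 to 37623002 and 37657299 to 37657594. Another 2 were in the MIPOL1 span, at 37866768 to 37866904 and 37923332 to 37923431, and 1 lay beyond the FOXA1 start, at 38247935 to 38248034. A summit of 13 tags stands 4 tags above the minimum of 9 at which that list starts on such a background.

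The far end of the domain held the longest stretch without listed peaks after GSK2879552. From 38138763 to 38241400, a stretch of 103 kb beyond the FOXA1 start, no GSK2879552 peak was listed. The longest such stretch in the vehicle list was 45.5 kb, between 37936048 and 37981510 in MIPOL1. The 8 vehicle peaks that lay wholly in the long GSK2879552 gap carried 10 to 16 tags, where their list starts at 8 or 9 tags on such a background. At each edge a further vehicle peak, with a summit of 21 tags, reached into the gap and overlapped the GSK2879552 peak there. The summit of the vehicle peak at the first edge lay within the gap.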

How the data were processed

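The 2 peak lists were analysed, each pooling both lanes of its condition. Per the submitters' processing notes, the builds were hg19 and GRCh37, and the tools were MACS2 2.1.2, BWA 0.7.2 and SAMtools 0.1.18, listed without roles. Read filters, removal of duplicates and shifting of reads for the transposase are not stated there. The deposited columns are the score, the fold (a ratio of tags to background, each plus 1), the −log10 p, the −log10 q and the distance of the summit from the peak's start, all as deposited by the authors. The score was not used further.

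Tags and background were solved from fold and −log10 p. A whole number of tags matched within 0.001 in 100% of rows of both lists, and in 100% of 5000 simulated peaks. Backgrounds above the genome-wide level were multiples of 0.01, as 100 bp tags over 10 kb give, so 100 times the background is the tag number in 10 kb. A summit can hold at most 200 tags. The lists do not give total read numbers, so depth was compared only by the ratio of the genome-wide backgrounds, 1.18.

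Peaks overlapped at 1 bp. Intervals are exact Poisson (tags, peak numbers), Clopper-Pearson (shares) and binomial (ratios). Peaks named in the text were the 10 with most tags and the 5 strongest without a partner per list, those at the gene starts and in the FOXA1 span, the widest, and the 5 lowest and 5 highest ratios among pairs of at least 40 tags, of which some are given. The stretches without listed peaks, 2 pairs between the genes, 1 tied GSK2879552 peak, 1 peak farther before the FOXA1 start, the joined peaks and 10 kb windows cited beyond that rule, and the background classes were chosen after their values were seen. The domain, members and lists were chosen with earlier results of these data known. Sequence of the peaks was not analysed here. Python 3.11.15, NumPy 2.4.6, pandas 2.3.3, SciPy 1.17.1 and Matplotlib 3.10.9 were used.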

Additional observations from a re-analysis of the deposited data

How the results depend on the processing

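No paired analysis was possible because a condition had 1 library, and for that reason none could be omitted either. Why values moved was not tested, beyond what each alternative is built from (fewer peaks, another divisor). At a −log10 q of at least 5, 39 GSK2879552 and 57 vehicle peaks remained in the domain, and from the MIPOL1 start to the FOXA1 start there were 46 and 56. With lists of equal length the order of the counts turned, with 71 GSK2879552 and 66 vehicle peaks. The share of GSK2879552 peaks with a partner, 76.1%, was 62.0% with a reciprocal overlap of 50% and 87.2% under the same limit on q. With no scaling for depth, the summed ratios were 0.750 in the domain, 0.708 in the MIPOL1 span, 0.831 beyond the FOXA1 start and 0.761 over 10 kb at the FOXA1 start, all below 1. Relative to the ratio over all pairs, an alternative added after the data were seen, they were 0.935 (0.866 to 1.01) in the domain, 0.971 before MIPOL1, 0.882 in the MIPOL1 span, 0.892 between the genes and 1.04 (0.901 to 1.19) beyond the FOXA1 start. The last of these lay above 1, with an interval that includes 1. Here 1 stands for the ratio over all pairs and not for equal tags. In the FOXA1 span the relative ratio was 0.979 (0.601 to 1.58). Relative to pairs of like background, also added, the 10 kb ratio at the FOXA1 start was 0.848 (0.793 to 0.906). Under the other alternatives run for it, from background subtraction to pairs of at least 60 tags and a reciprocal overlap of 50%, the domain's ratio stayed between 0.606 and 0.647. Depth limits single pairs: each interval of a pair in the domain spans a factor of over 1.5.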

Other observations

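The domain's scaled tag ratio at paired peaks, 0.638, can be set beside 2784 stretches of 650 kb with at least 20 pairs. Their median was 0.676, the 5th and 95th percentiles were 0.630 and 0.730, and 248 of them were at or below the domain's value. For each vehicle peak, 0.789 GSK2879552 peaks were listed in the domain and 0.842 in the median stretch. By strength, pairs of at least 80 tags over both lists had a ratio of 0.634 (0.560 to 0.718) in the domain, from 10 pairs, and 0.697 over the genome. Pairs of 40 to 80 tags had 0.621 (0.552 to 0.699), from 21 pairs, against 0.645 over the genome, and weaker ones 0.681 (0.576 to 0.805), from 18 pairs, against 0.748.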
